A study of Haplochromis burtoni and Lepidiolamprologus elongatus and Tropheus moorii with 25 samples.

Results

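Intestines of 6 cichlid species, 1 haplochromine and 5 members of its close relatives the Tropheini, were compared with intestines of 12 other mouthbrooding cichlid species. The 18 libraries were chosen by species from a series of 25, with 1 single-cell RNA sequencing library per species. The first side holds Haplochromis burtoni, Tropheus moorii, Petrochromis orthognathus, Limnotilapia dardennii, Shuja horei and Simochromis diagramma. The second side holds Callochromis pleurospilus, Cyprichromis coloratus, Perissodus microlepis, Eretmodus cyanostictus, Triglachromis otostigma, Xenotilapia spiloptera, Oreochromis niloticus, Trematocara zebra, Haplotaxodon microlepis, Cyphotilapia frontosa, Benthochromis horii and Bathybates ferox. The libraries of 6 Lamprologini species and of Boulengerochromis microlepis were not used. Each species is called by its genus from here on. All 18 libraries came from flushed intestine dissociated with dispase, and the labels give no treatment, age, sex, diet, site of capture or number of animals per library.

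Each library was summed over its cells, and the sums of UMIs, which are tags that each mark 1 captured transcript, were the units of every test. A cell was kept with at least 500 UMIs and at least 250 genes, which left 25357 cells in the haplochromine and Tropheini libraries and 47450 cells in the other mouthbrooder libraries. With 1 library per species, a p-value measures the spread between species' libraries. Shared ancestry was not modelled, and a difference between species cannot be told apart from a difference between their single libraries. Levels are given as counts per 1000000 UMIs (CPM), scaled by the trimmed mean of M-values (TMM) unless stated. A gene was called at an adjusted p under 0.05 in edgeR's quasi-likelihood test with Benjamini-Hochberg adjustment over all genes tested.

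The vertebrate intestine takes up nutrients through enterocytes, epithelial cells that absorb fat, sugar, amino acids and vitamins, package lipid for export, and can make glucose. Macrophages, dendritic cells and lymphocytes lie among and beneath them. Haplochromines and Tropheini are maternal mouthbrooders, and many Tropheini of the lake shore graze on algae. The gene functions given below are known mainly from mammals.

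Kept cells ranged from 2458 to 6928 per library on the haplochromine and Tropheini side and from 1072 to 5698 on the other side. The most cell barcodes that any 2 of the 18 libraries shared was 14. No library measure passed the adjustment over 7 measures in an exact 2-sided permutation test: features detected at an equal depth of 6927767 UMIs averaged 22566 ± 488 (SD, n = 6) against 21657 ± 697 (SD, n = 12), with an adjusted p of 0.0954. A pair of libraries stood apart, both among the other mouthbrooders. The Haplotaxodon and Trematocara barcode lists held 5000 and 2000 entries, of which 1320 and 818 were under 500 UMIs, and 77.8% of the Haplotaxodon cells fell in clusters given no name. Counts of calls, shares and the calls lost without them are given below. All species were counted against 1 common feature list whose source build is not given in the sources used here, so unequal sequence divergence from it was not tested as a part of any difference.

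In the sums over all cells, 18204 genes were tested and 136 were called, which is 0.747% of those tested. Of these, 55 were higher (0.302% of those tested) and 81 were lower (0.445%) in haplochromine and Tropheini libraries. At an unadjusted p under 0.05 there were 3602 genes, or 19.8% of those tested. DESeq2 called 1523 genes, or 8.37%, of which 437 were higher and 1086 lower. Among genes with a name and a mean of at least 20 CPM on one side, pck1, copb2, rbp2 and dgat2 fell furthest, and each had its highest level in enterocyte-like cells. Efnb2 and pax5 rose furthest by the same measure. The median log2 fold change of all genes tested was -0.11 with TMM scaling and -0.09 with DESeq2's size factors, so small differences are to be read against that shift.
The count changed with the model, the scaling and single libraries. With the enterocyte-like and T- or NK-like shares of cells as covariates it was 35 genes, 18 of the 26 named calls were lost, and the median absolute log2 fold change of the 26 was 2.33 against 2.63 without covariates. With the macrophage- or dendritic-like and B- or plasma-like shares, chosen after they had been seen, edgeR called 0 genes, 1272 had an unadjusted p under 0.05, and that median was 2.13. Those shares differ between the sides themselves, so cell makeup and side cannot be told apart in that fit.
The split of calls by direction rested on the scaling. TMM factors ranged from 1.11 to 1.38 in the 6 libraries, against 0.555 to 1.23 in the 12. With library size alone, a choice made after seeing the data, 862 genes were called, of which 757 were higher and 105 lower, and the median log2 fold change of all genes was 0.35. Of the 26 named calls 25 were kept in that fit, and xbp1 was lost. In bulk sums, fewer cells of a type and less RNA per cell cannot be told apart. It was 74 without Haplotaxodon and Trematocara, where efnb2, prpf4b, oplah and phyh (adjusted p 0.0514 each), LOC100698890 (0.053), cdo1 (0.0696), mta2 (0.0774) and igf2bp2 (0.0918) were no longer called. Leaving out 1 library gave 36 calls without Petrochromis, 38 without Tropheus, 43 without Simochromis, 59 without Shuja, 65 without Limnotilapia and 68 without Haplochromis. Among the other mouthbrooders it gave 82 without Cyprichromis or Perissodus, 88 without Cyphotilapia, 224 without Eretmodus and 504 without Callochromis.

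Pck1 encodes the cytosolic phosphoenolpyruvate carboxykinase, which commits carbon to gluconeogenesis. Over all cells its level was 10.2 CPM in Haplochromis, 1.49 in Tropheus, 2.63 in Petrochromis, 2.62 in Limnotilapia, 3.86 in Shuja and 1.70 in Simochromis. In the 12 other mouthbrooders the lowest was 12.6 CPM in Eretmodus, the median 269 CPM and the highest 1501 CPM in Trematocara. The groups did not overlap, and pck1 fell by 6.78 ± 1.11 on the log2 scale (SE), with an adjusted p of 0.0087. Of all genes tested, 0.297% had groups that did not overlap. The call was kept in 18 of 18 fits that each left out 1 library, and lost with the macrophage- or dendritic-like and B- or plasma-like shares as covariates (adjusted p = 0.326).

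Gapdh, a glycolytic enzyme, had 425, 589, 195, 784, 798 and 335 CPM in Haplochromis, Tropheus, Petrochromis, Limnotilapia, Shuja and Simochromis, against 348 to 8335 CPM with a median of 2956 in the other mouthbrooders. The groups overlapped through Callochromis, the lowest of the 12. Gapdh fell by 2.65 ± 0.54 (log2, SE) with an adjusted p of 0.0271, and the call was lost without any 1 of the 6 haplochromine and Tropheini libraries (largest adjusted p 0.081).
Gys1, a glycogen synthase, lay between 2.11 and 5.99 CPM against 4.09 to 27.4 CPM, and fell by 1.82 ± 0.33 (log2, SE, adjusted p 0.0168), a call lost without Simochromis (adjusted p 0.0524). Gpt, an alanine aminotransferase, lay between 1.70 and 6.60 CPM against 5.61 to 60.9 CPM (adjusted p 0.0195). Cdo1, which oxidises cysteine, lay between 4.00 and 30.8 CPM against 16.3 to 271 CPM (adjusted p 0.0404). Of 29 glycolysis and gluconeogenesis genes tested, 3 were lower and none higher, namely pck1, gapdh and gys1, against 0.445% of all genes tested that were lower. The list median was -0.31 with TMM scaling and 0.13 with library size alone, against -0.11 and 0.35 for all genes, and 10 of the 29 were positive. The gene g6pc, whose product releases free glucose, had 1.47 to 94.0 CPM against 14.6 to 755 CPM and did not pass (adjusted p 0.0793).

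Genes of fat and vitamin A handling formed the next group. Rbp2 encodes a cellular retinol-binding protein of enterocytes. Its level was 124, 60.2, 59.3, 243, 89.2 and 244 CPM in the 6 libraries in the order above, against 225 to 7327 CPM with a median of 1459 in the other mouthbrooders. Only Eretmodus, at 225 CPM, lay below the highest of the 6. Rbp2 fell by 4.05 ± 0.80 (log2, SE) with an adjusted p of 0.0245. The call was lost without Haplochromis, Tropheus, Petrochromis, Shuja or Simochromis (largest adjusted p 0.0791).
Dgat2, which makes triglyceride in its last step, lay between 2.21 and 12.2 CPM, against 5.24 to 253 CPM in the other mouthbrooders. Limnotilapia was the highest of the 6, and Callochromis, at 5.24 CPM, and Oreochromis, at 9.81 CPM, lay below it. Dgat2 fell by 4.04 ± 0.75 (log2, SE, adjusted p 0.018). Of 23 genes of lipid absorption and export tested, dgat2 alone was called, against 0.445% of all genes tested called lower. The list median was -1.35 with TMM scaling and -0.79 with library size alone. In the same list apoa4a, an apolipoprotein of lipid export, had 411 to 2841 CPM against 665 to 13084 CPM, and cd36, a fatty acid transporter, had 17.6 to 163 CPM against 48.5 to 1551 CPM, and neither passed (adjusted p 0.0712 and 0.0929). All 8 tested retinoid and carotenoid genes had negative fold changes, with a median of -1.04 with TMM scaling and -0.52 with library size alone, and rbp2 was the 1 called. Phyh, of peroxisomal fatty acid oxidation, lay between 9.67 and 42.7 CPM against 24.4 to 328 CPM (adjusted p 0.0245).

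Copb2 codes for a subunit of the COPI coat of Golgi vesicles. It had 0.643, 0.470, 0.631, 1.25, 2.01 and 1.80 CPM in the 6 libraries, against 8.19 to 441 CPM in the other mouthbrooders, with no overlap (log2 fold change -5.84 ± 1.01, SE, adjusted p 0.0128). In the annotation of H. burtoni (assembly NCSU_Asbu1) the gene listed just before copb2 is rbp2b. Whether reads were split between copb2 and rbp2b in these counts was not tested, and the copb2 value is uncertain. The build used for counting is not given, and gene order in it was not checked.

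**Figure D1:**
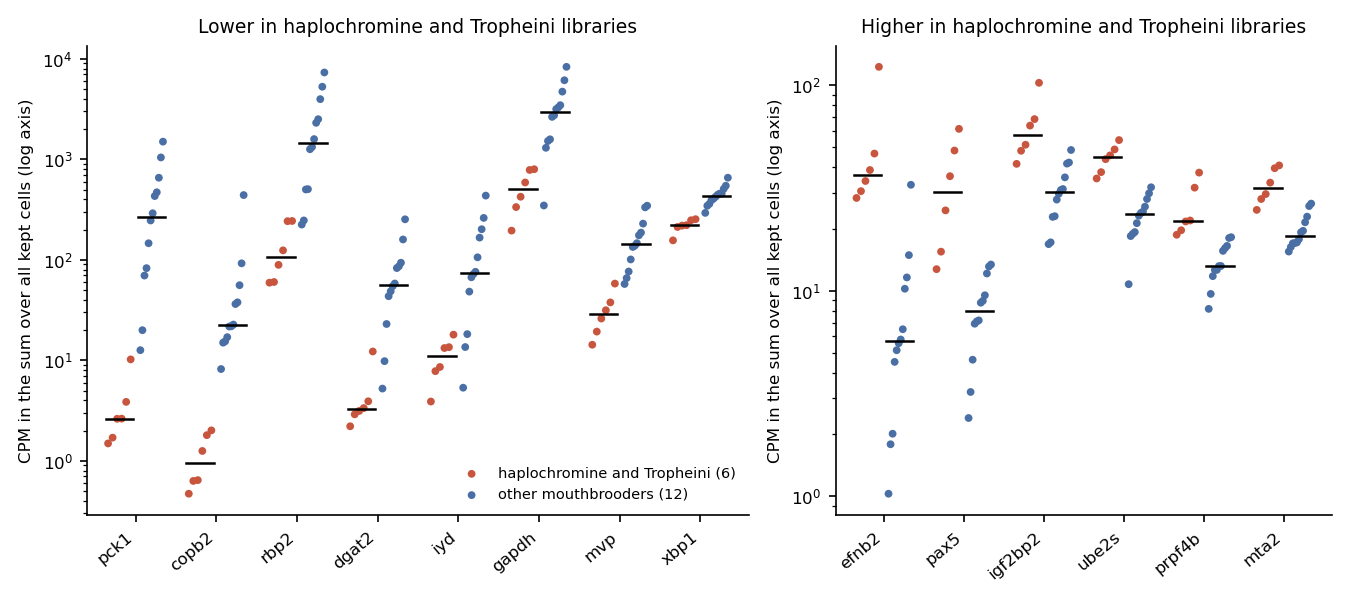
CPM per library (log axes) over all kept cells, for 8 lower and 6 higher genes, with haplochromine and Tropheini libraries in red and other mouthbrooders in blue. Black lines are medians. The groups of pck1, copb2 and xbp1 do not overlap, and those of rbp2 and dgat2 touch.

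Further lower genes had unlike roles. Iyd, which recovers iodide from iodotyrosines, lay between 3.89 and 18 CPM against 5.34 to 436 CPM (adjusted p 0.0495). Mvp, the major vault protein, lay between 14.3 and 58.1 CPM against 57.5 to 346 CPM (adjusted p 0.0152), and Oplah, of glutathione breakdown, between 2.1 and 7.34 CPM against 10.3 to 90.8 CPM (adjusted p 0.0245). Ddit4, an inhibitor of growth signalling that stress induces, lay between 0.993 and 8.55 CPM against 2.64 to 127 CPM (adjusted p 0.0495). Esr2, an oestrogen receptor, was the 1 called of 21 gut nuclear receptor genes, at 0.400 to 1.40 CPM against 0.924 to 11.6 CPM. Onecut1 was the 1 called of 26 gut transcription factor genes, at 0.526 to 3.30 CPM against 4.19 to 15.4 CPM. Of all genes tested 0.445% were called lower.
Xbp1 drives the unfolded protein response and plasma cell formation. It had 156, 254, 221, 248, 219 and 212 CPM against 293 to 657 CPM, with no overlap, and fell by 1.01 ± 0.19 (log2, SE, adjusted p 0.0208), or by 0.53 with library size alone, where it was not called. It was not called in enterocyte-like cells (adjusted p 0.96), T- or NK-like cells (0.105) or macrophage- or dendritic-like cells (0.197).

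Efnb2 encodes ephrin-B2, a membrane ligand of Eph receptors. Its level was 34.2, 30.5, 122.7, 46.5, 28.3 and 38.6 CPM in the 6 libraries, against 1.03 to 32.7 CPM with a median of 5.67 in the other mouthbrooders. Petrochromis was the highest of the 6, and Eretmodus, at 32.7 CPM, was the only other mouthbrooder within their range. Efnb2 rose by 2.56 ± 0.55 (log2, SE, adjusted p 0.0368), and its call was lost in 10 of 18 fits without 1 library (largest adjusted p 0.143).
Pax5, which specifies B cells, had 24.6, 15.5, 36.1, 12.7, 48.1 and 61.3 CPM against 2.40 to 13.4 CPM, and rose by 2.02 ± 0.36 (log2, SE, adjusted p 0.013). Only Oreochromis, at 13.4 CPM, and Callochromis, at 13.1 CPM, lay above Limnotilapia, the lowest of the 6. The call was lost without Simochromis (adjusted p 0.0521).
Smaller rises were found for igf2bp2, an RNA-binding protein (41.4 to 103 CPM against 16.9 to 48.4 CPM), ube2s, a ubiquitin-conjugating enzyme of mitosis (35.1 to 54.0 against 10.8 to 31.9), prpf4b, a splicing kinase (18.7 to 37.5 against 8.16 to 18.2), and mta2, a chromatin repressor subunit (24.7 to 40.7 against 15.5 to 26.5). Ube2s and prpf4b did not overlap between the groups.

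Of the 136 called features, 72, or 52.9%, carry a locus number and no gene name, against 54.2% of all genes tested. The text gives a pair in each direction. LOC100697972 had 1.34 CPM in Haplochromis and 64.1, 129, 45.5, 169 and 67.2 CPM in Tropheus, Petrochromis, Limnotilapia, Shuja and Simochromis, against 0 to 1.63 CPM in the other mouthbrooders (adjusted p 0.000305). The 5 Tropheini libraries were thus above every other library, while Haplochromis lay within the range of the other mouthbrooders. LOC102079408 had 40.1 CPM in Haplochromis, 170 in Limnotilapia and 104 in Shuja, and 0.941 to 1.5 CPM in the remaining 3, against 0 to 2.22 CPM (adjusted p 0.00459). LOC102078540 had 0 to 1.25 CPM against 6.10 to 247 CPM with no overlap (adjusted p 0.013), and LOC100698890 had 0.706 to 2.21 CPM against 1.30 to 142 CPM (adjusted p 0.0495). No feature with at least 10 CPM in every library of one side had 3 UMIs or fewer over the other.

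Clusters of cells from the 18 libraries were named from marker genes, and shares of cells after doublet removal were compared by an exact 2-sided permutation test over libraries, adjusted over 11 classes. Macrophage- or dendritic-like cells made up 12.9 ± 3.39% of cells in haplochromine and Tropheini libraries (SD, n = 6) and 7.20 ± 3.38% in other mouthbrooder libraries (SD, n = 12), with an adjusted p of 0.0376. The shares were 12.6% in Haplochromis, 10.8% in Tropheus, 18.5% in Petrochromis, 14.5% in Limnotilapia, 8.59% in Shuja and 12.7% in Simochromis, against 1.81% to 12.1%. Without Haplotaxodon and Trematocara the adjusted p was 0.0865, and leaving out 1 library gave up to 0.128, so the call rests on which libraries are included.
B- or plasma-like cells made up 9.22 ± 3.88% against 4.21 ± 2.96% (SD, n = 6 and 12, adjusted p 0.0376, exact permutation test). That call turned on 1 cluster. A cluster that shared 3 B cell markers but had the tuft cell genes trpm5 and pou2f3 among its leading genes was left unnamed by a naming rule revised after the clusters had been seen. It made up 1.44% of cells against 1.86%, with 9.39% in Benthochromis. Counted as B- or plasma-like, as in an earlier version of the rule, it gave 10.7 ± 4.04% against 6.06 ± 5.45% and an adjusted p of 0.398. The adjusted p was also 0.109 without Haplotaxodon and Trematocara, and 0.0542 as a share of named cells.

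Enterocyte-like cells made up 9.58 ± 3.89% against 15.5 ± 8.08% (SD, n = 6 and 12), and the difference did not pass (adjusted p 0.398, exact permutation test). A cluster of 246 cells, all from Haplotaxodon, had the enterocyte markers fabp2, apoa4a, mttp and rbp2 up. The naming rule left it unnamed because over 75% of it came from 1 library. That cluster was 7.31% of Haplotaxodon cells, beside 6.15% counted as enterocyte-like, and is in neither the shares nor the enterocyte-like sums. T- or NK-like cells made up 35.2 ± 9.24% against 34.4 ± 13.5%. The other 7 classes had adjusted p-values of 0.685, and the most common of them, lysosome-rich enterocyte-like cells, made up 3.81% against 2.93% of cells.

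**Figure D2:**
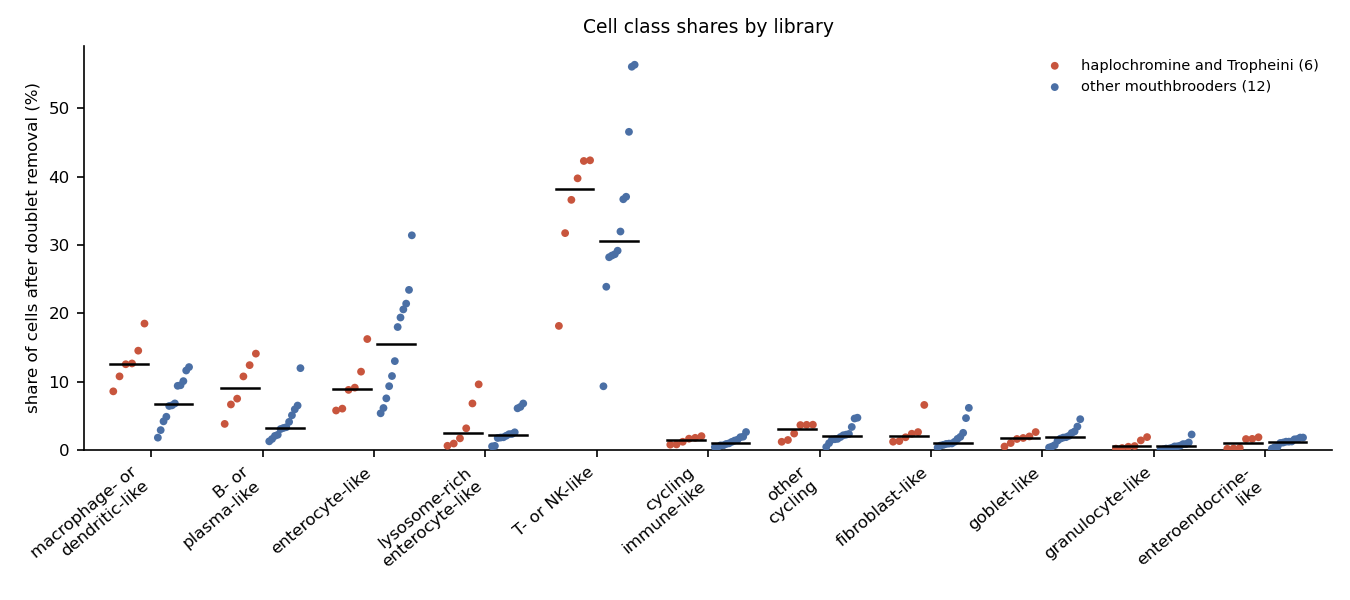
Share of cells (%) in 11 cell classes for each library, haplochromine and Tropheini in red and other mouthbrooders in blue, with medians as black lines. Macrophage- or dendritic-like shares centre on 12.6% against 6.68%, and the groups overlap in every class.

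Summed marker levels over all cells were not tested and are given as values. The 13 macrophage and dendritic cell markers summed to 8026 ± 1574 CPM without TMM scaling against 2854 ± 1918 CPM, ranging from 5219 to 9792 against 773 to 7890. EdgeR called 0 of the 12 tested, and 11 of the 12 had positive fold changes. At an unadjusted p under 0.05 there were 3 of the 12, against 19.8% of all genes tested. The median log2 fold change of the 12 was 0.54 with TMM scaling and 0.999 with library size alone. For all genes tested it was -0.11 and 0.35. Cd74, the invariant chain of antigen presentation, was the most abundant, so the sum does not weigh the 13 markers equally. A list of 17 antigen presentation genes that also holds cd74 summed to nearly the same, 8220 ± 1520 CPM against 3076 ± 1867 CPM. The 9 enterocyte markers summed to 6587 ± 2793 CPM against 13943 ± 7388 CPM, with rbp2 the 1 called. Of the 81 genes that were lower, 37, or 45.7%, had their highest level in enterocyte-like cells, against 6.02% of all genes tested. Of the 55 genes that were higher, 17, or 30.9%, had theirs in macrophage- or dendritic-like cells, against 8.98% of all genes tested. Their part in the all-cell differences was not tested beyond the covariate fits. The class of highest level came from UMIs pooled over the same 18 libraries as the calls, with unequal amounts from each side. The percentages by class are thus not independent of the calls and do not test them.

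**Figure D3:**
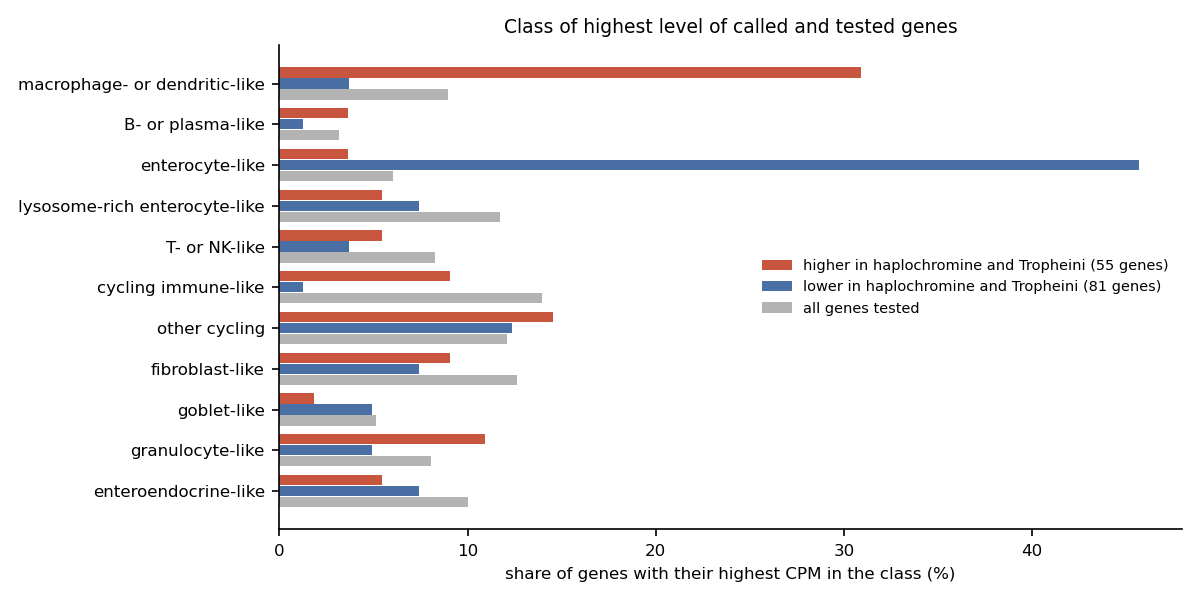
Percentage of genes with their highest CPM in each cell class, for the 55 higher genes, the 81 lower genes and all genes tested. Enterocyte-like cells hold 45.7% of the lower genes, and macrophage- or dendritic-like cells 30.9% of the higher ones. The classes were read from the same libraries as the calls.

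Some gene families had mostly 1 sign without any call. Of 67 cytosolic ribosomal protein genes 66 had negative fold changes with TMM scaling, with a median of -0.50 (-0.49 with DESeq2's size factors), yet their plain CPM summed to 252426 ± 34984 against 249006 ± 42604, so the direction depends on the scaling. With library size alone the ribosomal median was 0.03. Of 50 nuclear oxidative phosphorylation genes 47 were negative with TMM scaling (median -0.48), and with library size alone the median was -0.01, so that lean depends on the scaling too. Of 38 cell cycle genes 35 were positive with TMM scaling (median 0.68, and 1.09 with library size alone). For these 3 lists edgeR called 0 genes. At an unadjusted p under 0.05 there were 29 of 67 ribosomal, 17 of 50 oxidative phosphorylation and 3 of 38 cell cycle genes, of which 2 were higher, against 19.8% of all genes tested. Of 20 immediate early and dissociation genes 18 were negative with TMM scaling (median -0.38, and 0.11 with library size alone), with none called. In T- or NK-like cells 18 of 19 were negative, in macrophage- or dendritic-like cells 14 of 18 and in enterocyte-like cells 11 of 18. Handling of the tissue was not tested.

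Levels were then compared within cell classes, which takes out the share of the class itself but not free RNA from other classes. Free RNA was not tested in any class. In T- or NK-like cells 7 of 9 enterocyte markers had negative fold changes. Their median log2 fold change was -0.68, against -0.05 for all genes tested there. In enterocyte-like cells 17 of 10429 genes were called, or 0.163%, with 9 higher (0.0863%) and 8 lower (0.0767%), and with library size alone 17 higher and 8 lower. At an unadjusted p under 0.05 there were 10.1% of genes, and DESeq2 called 145, or 1.39%. Pck1 had 11.6, 5.12, 10.9, 8.45, 16.0 and 12.9 CPM in the 6 libraries, against 32.0 to 1499 CPM with a median of 529, and fell by 5.75 ± 0.76 (log2, SE, adjusted p 0.000698). Copb2 had 1.37 to 9.71 CPM against 29.1 to 345 CPM (adjusted p 0.00179), a value as uncertain as that over all cells. The groups did not overlap for either gene, as for 0.201% of genes tested in the class, and both calls were kept in 18 of 18 fits without 1 library.
Esr2, outside the naming rule and given after its value had been seen, was lower as well (log2 fold change -5.02, adjusted p 0.00902), and was kept in 18 of 18 fits. Its counts were low, so the size of that change is uncertain. Over all cells the 6 libraries held 81 esr2 UMIs and the 12 held 1156. Pooled over the 18 libraries, enterocyte-like cells had 6.68 CPM of esr2, and lysosome-rich enterocyte-like cells had 7.67 CPM, the highest of the named classes. Rbp2 was not called within enterocyte-like cells, at 319 to 1971 CPM against 848 to 11473 CPM (adjusted p 0.203), nor were dgat2 (10.9 to 52.2 CPM against 17.6 to 275, adjusted p 0.0656) and gapdh (adjusted p 0.105). The enterocyte-like class held 2 clusters. The first held 50.2 ± 6.68% against 50.7 ± 17.4% of its cells (SD, n = 6 and 12), with 2.42% in the lowest other mouthbrooder library, Haplotaxodon. It gave 77.3 ± 10.2% against 81.4 ± 14.9% of the UMIs in the sums, ranging from 62.7% to 89.5% against 42.9% to 95.3%. The 42.9% was in Haplotaxodon, where 5 cells gave 125698 of the 293002 UMIs in that sum.
Aga, a lysosomal enzyme of glycoprotein breakdown, had 21, 191, 83.5, 444, 18 and 401 CPM against 8.88 to 50.7 CPM, and rose by 3.26 ± 0.52 (log2, SE, adjusted p 0.00431). Haplochromis and Shuja lay within the range of the other mouthbrooders. Haao, of the kynurenine route from tryptophan to NAD, had 73.4 to 227 CPM against 8.54 to 73.9 CPM (adjusted p 0.027), and the call was lost without Petrochromis, Limnotilapia, Shuja, Simochromis, Callochromis or Xenotilapia (largest adjusted p 0.112), or without Haplotaxodon and Trematocara together (0.0505). LOC102078540 had no UMI in the enterocyte-like cells of the 6 libraries. Taking 3 UMIs over the group as the floor, it was at least 238-fold lower than in the pooled other mouthbrooders, at 53.7 CPM. That bound is for the pool, not for each library, and covers counting error only.

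In macrophage- or dendritic-like cells 42 of 8513 genes were called, or 0.493%, with 19 higher (0.223%) and 23 lower (0.27%). At an unadjusted p under 0.05 there were 934 genes, or 11%, and DESeq2 called 175, or 2.06%. Haao was higher here too, at 60.3, 99.7, 100.1, 143, 158 and 208 CPM against 1.89 to 66.2 CPM (adjusted p 0.0489), a call lost in 12 of 18 fits without 1 library and without Haplotaxodon and Trematocara (0.0756). Skida1 had 12.8 to 28.2 CPM against 0 to 7.51 CPM (adjusted p 0.00452, kept in 18 of 18 fits), and narf had 13.4 to 44.1 CPM against 0 to 9.66 CPM (adjusted p 0.0099). Neither overlapped between the groups, as for 0.117% of genes tested in the class. Values near 0 are coarse in the smallest sums of this class, 226990 UMIs in Trematocara and 203469 UMIs in Haplotaxodon.
Fbxl12, of a ubiquitin ligase family, had 14.1 to 186 CPM against 0.774 to 22.5 CPM (adjusted p 0.0141), and atm, a kinase of the DNA damage response, had 5.94 to 63.5 CPM against 0 to 15.5 CPM (adjusted p 0.0271). Efnb2 had 247 to 774 CPM against 18 to 271 CPM and was called (adjusted p 0.0419). It lies outside the naming rule in this class and was given because of the all-cell call. Its call was lost in 14 of 18 fits without 1 library, that is in all except those without Perissodus, Eretmodus, Triglachromis or Xenotilapia (largest adjusted p 0.152). It was also lost without Haplotaxodon and Trematocara (adjusted p 0.068).
Genes lower in this class included receptors. Csf3r, the receptor of granulocyte colony-stimulating factor, had 4.78 to 19.5 CPM against 12.4 to 77.3 CPM (adjusted p 0.0187), and ifngr2-2, an interferon gamma receptor gene, had 3.35 to 9.05 CPM against 4.83 to 66.0 CPM (adjusted p 0.0199). Cystm1 had 6.50 to 18.8 CPM against 13.5 to 121 CPM (adjusted p 0.0115), mllt11 had 1.33 to 11.4 CPM against 0 to 166 CPM (adjusted p 0.0489), and trappc11, of vesicle tethering, had 6.63 to 12.3 CPM against 11.1 to 36.0 CPM (adjusted p 0.0489). Csf3r is also a marker of granulocyte-like cells. Pooled over the 18 libraries, cystm1 had 31.6 CPM in this class, 197 in enteroendocrine-like, 154 in lysosome-rich enterocyte-like and 132 in enterocyte-like cells. Mllt11 had 20.1 CPM in this class and 66.1 CPM in enteroendocrine-like cells. Ifngr2-2, at 18.9 CPM, and trappc11, at 14.1 CPM, were highest in this class among the named classes. The part of other cells or their free RNA in these values was not tested. The class held 31 cells in Trematocara and 61 in Haplotaxodon, and without that pair the calls of atm (adjusted p 0.0511) and trappc11 (0.0613) were lost too. The count of calls was 6 without Petrochromis, 15 without Limnotilapia or Simochromis, 19 without Tropheus and 27 without Haplochromis.

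In T- or NK-like cells 14 of 9847 genes were called, or 0.142%, with 8 higher (0.0812%) and 6 lower (0.0609%), and with library size alone 19 higher and 5 lower. At an unadjusted p under 0.05 there were 13.4% of genes, and DESeq2 called 320, or 3.25%. Smarcd2, a chromatin remodelling subunit, had 32.5 to 50.4 CPM against 17.1 to 33.3 CPM (adjusted p 0.0458), a call lost in 16 of 18 fits without 1 library (largest adjusted p 0.15), and without Haplotaxodon and Trematocara (0.0511). The count of calls was 2 without Tropheus, 5 without Petrochromis, Limnotilapia, Shuja, Cyprichromis, Perissodus, Triglachromis or Bathybates, 6 without Simochromis, Eretmodus or Cyphotilapia, 7 without Xenotilapia, and 8 without Haplotaxodon and Trematocara together. LOC100697972 had 13.8, 330, 563, 294, 606 and 223 CPM against 0 to 6.25 CPM (adjusted p 7.73e-05). Its groups did not overlap, as for 0.213% of genes tested in the class. Pck1 was called here as well, at 0 to 0.687 CPM against 0.784 to 67.9 CPM (adjusted p 0.024), a level far below that in enterocyte-like cells of the same libraries. In the pooled UMIs of all 18 libraries pck1 had 543 CPM in enterocyte-like cells and 8.30 CPM in T- or NK-like cells. The call was lost without Tropheus, Petrochromis, Limnotilapia, Shuja or Simochromis (largest adjusted p 0.0848). Free RNA from enterocytes was not tested as a source.

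**Figure D4:**
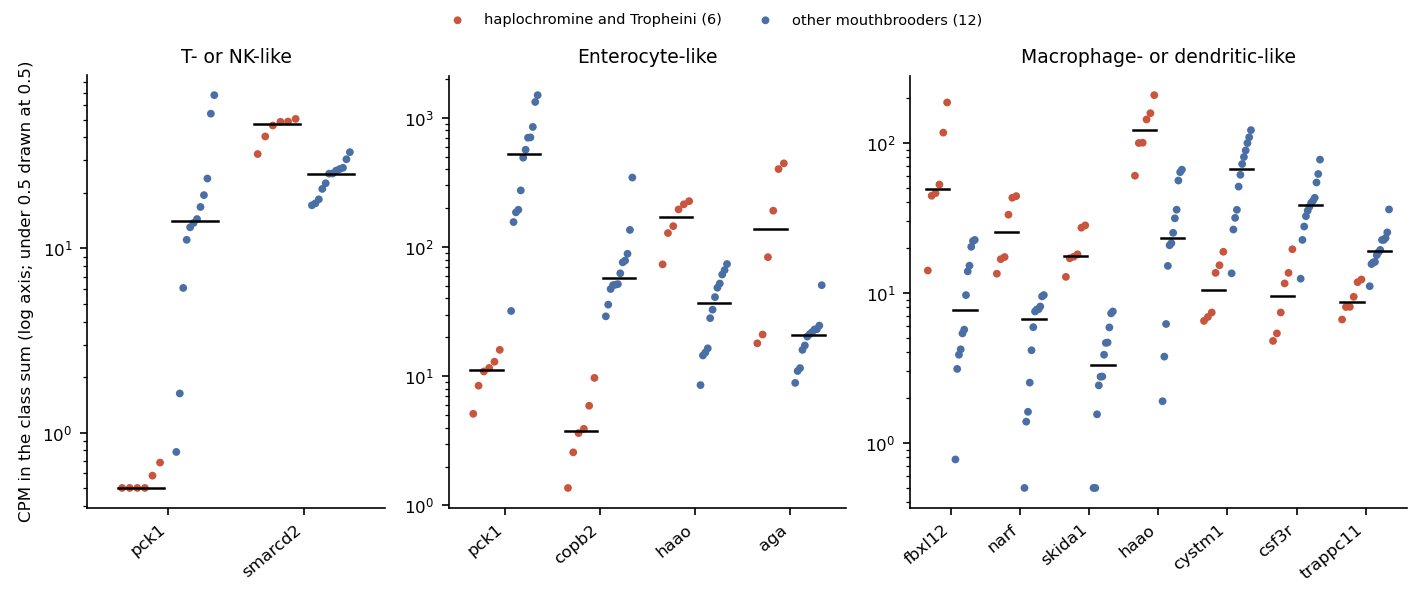
CPM per library (log axes) within T- or NK-like, enterocyte-like and macrophage- or dendritic-like cells, haplochromine and Tropheini in red and other mouthbrooders in blue, with medians as black lines. Values under 0.5 CPM are drawn at 0.5, and pck1 lies between 5.12 and 16.0 CPM against 32.0 to 1499 CPM in enterocyte-like cells.

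Some calls that the naming rule picked were kept in every fit without 1 library that tested them, among them locus numbers given no values here. These were 5 of 26 over all cells, 6 of 8 in enterocyte-like cells and 1 of 6 in T- or NK-like cells. In macrophage- or dendritic-like cells they were 3 of 14, of which LOC100710710 was tested, and kept, in 17 such fits. The calls kept over all cells were pck1, copb2, LOC100697972, LOC102078540 and LOC102079408. In enterocyte-like cells they were pck1, copb2, aga and 3 locus numbers, and in T- or NK-like cells LOC100697972. In macrophage- or dendritic-like cells they were skida1 and a pair of locus numbers. The copb2 values remain uncertain, as said above. Each other call picked by the rule was lost without at least 1 library, and none of the picked genes changed direction in the alternatives run.

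Whole profiles were compared as 1 minus Spearman's rho over 7627 genes with a mean of at least 10 CPM. The 6 haplochromine and Tropheini libraries lay at a mean distance of 0.245 from each other, against 0.325 among the 12 other mouthbrooders, and the mean distance between the sides was 0.348. Among all choices of 6 of the 18 libraries, none gave a smaller mean distance than these 6 (exact 1-sided permutation test, p = 5.39e-05, the smallest it can give). The test treats species as exchangeable, which related species are not. For each of the 6 the nearest library was 1 of the other 5, and for 8 of the 12 other mouthbrooders it was another of the 12. Callochromis was nearest to Petrochromis, Eretmodus and Xenotilapia to Tropheus, and Oreochromis to Limnotilapia.

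**Figure D5:**
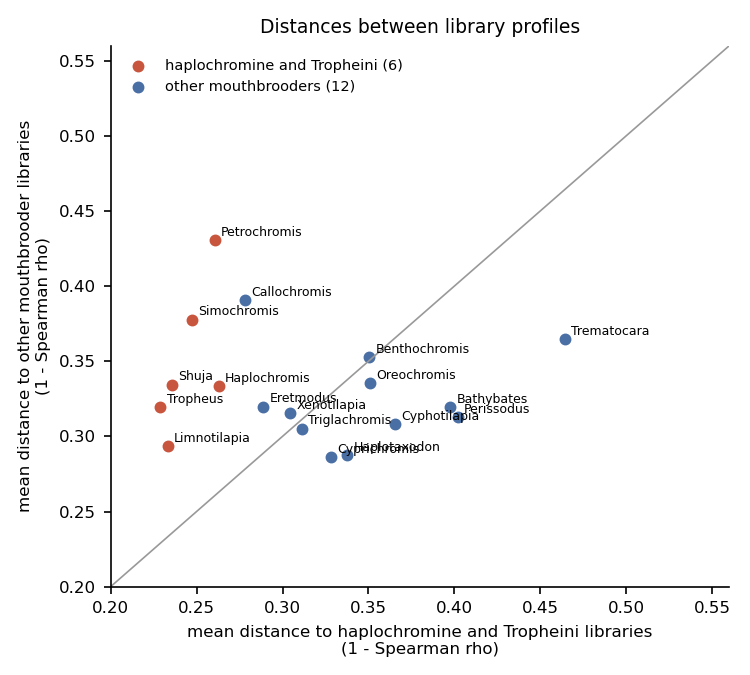
Mean distance of each library to the haplochromine and Tropheini libraries (x) and to the other mouthbrooder libraries (y), as 1 minus Spearman's rho. The grey line marks equal distances, and all 6 haplochromine and Tropheini libraries lie above it, as do Callochromis, Eretmodus, Xenotilapia and, just above it, Benthochromis.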

How the data were processed

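Per the labels, cells of 1 intestine sample per species were captured with 10x 3' v3.1 chemistry. The authors deposited raw UMI counts per feature and cell barcode, made with Cell Ranger 5.0.0 per the file headers (5.0 in the submitters' processing notes). The reference build is not given in the sources used here. The deposited matrices of the 18 libraries held 72807 barcodes with at least 500 UMIs and 250 genes, whose counts were summed per library. Sums were tested with edgeR 4.0.16 (R 4.3.3; filterByExpr, TMM, robust quasi-likelihood fit, no covariates), with DESeq2 1.42.0 as an alternative. P-values were adjusted by Benjamini-Hochberg over all genes tested, with a limit of 0.05. Single values were compared by exact permutation over all assignments of libraries to sides (scipy 1.17.1).

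For cell classes, 2593 predicted doublets were removed, and 70214 cells were clustered (2000 variable genes, 30 principal components, Harmony by library, Leiden with leidenalg 0.10.2, resolution 1). Of 34 clusters 22 were named from at least 3 markers and 12 were left unnamed. The naming rule was revised after clusters had been seen. Class sums per library needed 30 cells and 50000 UMIs. The edgeR test over all cells was run on simulated counts with known differences, drawn independently for each library from 1 base mean per gene. That simulation held no shared ancestry and no shift in cell makeup, so it cannot speak to their part in the calls. The doublet, clustering, naming, share and distance steps were not simulated. Named genes were called genes of at least 20 CPM with the largest changes in each direction, list members by smallest p, and up to 2 unnamed loci per direction. The members compared and the lists were chosen with earlier results of these data known. Groups came from species names in the labels. The alternatives were other normalization (library size alone was added after seeing the data), no filter on low counts, other cell filters, shares or depth as covariates, and leaving out libraries. Total counts were 7016583 to 32127144 UMIs per library. Floors cover counting error only, while the SDs and SEs given include the spread between libraries. Each SE of a log2 fold change is its absolute value divided by the square root of edgeR's F statistic.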

Additional observations from a re-analysis of the deposited data

Results flagged for a closer look

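Of 72 values checked among the 6 haplochromine and Tropheini libraries, 12 had 1 library far from the other 5, with a gap over 0.625 of the group's range. For independent values with a normal spread, that limit would mark about 1 in 20 by chance. The values checked are not independent, and in all 12 the library apart was the highest of the 6. The chance rate for such values is not known, so the count is not read as an excess.

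Over all cells, efnb2 stood at 122.7 CPM in Petrochromis, with the next library at 46.5 CPM. Pck1 stood at 10.2 CPM in Haplochromis against 3.86 CPM in the next, and dgat2 at 12.2 CPM in Limnotilapia against 3.91 CPM. Esr2 stood at 1.40 CPM in Haplochromis against 0.606 CPM, and LOC102078540 at 1.25 CPM in Tropheus against 0.285 CPM.

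In enterocyte-like cells, LOC100699397 stood at 5403 CPM in Simochromis against 711 CPM in the next library. LOC100699108 stood at 454 CPM in Tropheus against 92.3 CPM, and LOC112841646 at 7.26 CPM in Petrochromis against 1.65 CPM. In macrophage- or dendritic-like cells, mllt11 stood at 11.4 CPM in Haplochromis against 4.24 CPM, ifngr2-2 at 9.05 CPM in Shuja against 4.33 CPM, and LOC109194338 at 461 CPM in Haplochromis against 105 CPM. The share of fibroblast-like cells was 6.60% in Tropheus and 2.63% in the next library.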

How the results depend on the processing

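Over all cells 136 genes were called, against 1523 with DESeq2, 74 without Haplotaxodon and Trematocara, 68 without Haplochromis, 862 with library size alone (chosen after seeing the data; 1 of 26 named calls lost), 35 with enterocyte-like and T- or NK-like shares as covariates (18 lost), 66 with log10 median UMIs (9 lost), 0 with macrophage- or dendritic-like and B- or plasma-like shares (chosen after seeing the data; all 26 named genes lost), and 36 to 504 without 1 library. Without barcodes over 20% mitochondrial 5 named calls were lost. In enterocyte-like cells 17 became 145 with DESeq2, 72 with no filter on low counts, 28 without Oreochromis, Bathybates and Trematocara, and 14 to 25 without 1 library. In T- or NK-like cells 14 became 320 with DESeq2, 28 with no filter, 24 with library size alone, 8 without Haplotaxodon and Trematocara, and 2 to 21 without 1 library. In macrophage- or dendritic-like cells 42 became 175 with DESeq2, 71 with no filter, 27 without Haplochromis, and 6 to 48 without 1 library. The B- or plasma-like difference of 5.01 percentage points became 5.65 as a share of named cells and 4.51 without Haplotaxodon and Trematocara. With the tuft-gene cluster (chosen after seeing the data) it became 4.60, and its call was lost in these 3 settings. Without 1 library it ran from 4.03 to 6.09, and the call was lost in at least 1 such test (largest adjusted p 0.128, permutation test). The macrophage- or dendritic-like difference became 4.78 without Haplotaxodon and Trematocara (lost). Without 1 library it ran from 4.63 to 6.61, and that call too was lost in at least 1 such test (largest adjusted p 0.128). Of the uncalled shares, the T- or NK-like difference turned to -2.84 of named cells, -2.76 without that pair and -1.49 to 4.19 without 1 library, and the cycling immune-like one to -0.134 of named cells. Without 1 library the fibroblast-like difference ran from -0.0117 to 1.16, granulocyte-like from -0.0495 to 0.315 and lysosome-rich from -0.278 to 1.52. The causes were not tested. The profile distance kept its side of the threshold in every alternative run. No gene picked by the naming rule changed direction in the alternatives run. No paired analysis was possible because each species has 1 library and the labels give no replicate number that pairs species. The shallowest class sums held 203469 UMIs (Haplotaxodon) and 226990 UMIs (Trematocara) of macrophage- or dendritic-like cells, and 236124 UMIs of enterocyte-like cells (Petrochromis).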
